A study of Sus scrofa with 11 samples.

Results

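Fibroblast growth factors (FGFs) and their tyrosine kinase receptors were examined in bulk RNA-seq of porcine skin wounds. The genes were taken by symbol from the deposited expression values: the 6 ligands FGF1, FGF2, FGF7, FGF9, FGF10 and FGF18 and the 4 receptors FGFR1, FGFR2, FGFR3 and FGFR4, which are 10 of 30376 genes. All 10 symbols matched 1 gene each. The samples were 7 wounds of a Yucatan minipig made diabetic with streptozotocin (STZ), a toxin of pancreatic beta cells, and 4 wounds of a non-diabetic Yucatan minipig. Both animals were female, the wounds were full-thickness excisions of the back, and all were collected on day 10. The diabetic minipig had received insulin after induction, which was stopped before wounding. Age is not in the labels. Every wound of a group came from the same animal, so diabetes and animal cannot be told apart, and each p-value below measures the spread between wounds of these minipigs. In bulk tissue, fewer cells of a type and less RNA per cell also cannot be told apart.

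FGFs are secreted or cell-associated proteins that bind receptor tyrosine kinases together with heparan sulphate, and the activated receptor signals through the adaptor FRS2 to the RAS and MAP kinase cascade. In skin, FGF7 and FGF10 are paracrine factors made by mesenchymal cells, and their receptor is the epithelial splice form of FGFR2, which lets dermal cells signal to keratinocytes. FGF2 acts on fibroblasts and endothelial cells, largely through FGFR1. Signalling is limited by inhibitors that the pathway itself induces, such as Sprouty proteins and IL17RD, and it drives the ETS transcription factors ETV4 and ETV5. The deposited values are per gene, so splice forms of the receptors were not separated.

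Values are FPKM, reads scaled by gene length and library size. The reads behind them, recovered from the steps of the values, numbered 28314785 to 40168372 per wound. Differences were tested on log2(FPKM + 0.5) with limma, adjusted by Benjamini-Hochberg over the 13956 genes that reached 0.5 FPKM in at least 4 wounds. A call required a log2 difference beyond 0.5 in size together with an adjusted p below 0.05. A two-sided exact permutation test over the 330 splits into 7 and 4 wounds gave a second p, which cannot go below 0.00303. Defining markers of fibroblasts (COL1A1 at 4615 to 20109 FPKM) and of endothelium (PECAM1 at 75.4 to 108 FPKM) were high in every wound. Keratinocyte markers were not: KRT5 was at 29.2 FPKM in diabetic replicate 4 and 211 in non-diabetic replicate 1, against 817 to 2861 in the other 9 wounds. Skeletal muscle genes stood out in diabetic replicate 3 (ACTA1 at 957 FPKM, and 0 to 0.0272 elsewhere). The first letter of the library name, L or R, also set wounds apart, and its meaning is not given in the labels. L-named libraries were diabetic replicates 1 to 3 and non-diabetic replicates 1 and 2, and R-named libraries were the rest. The interaction of group and letter passed an adjusted p under 0.05 in 901 tested genes (limma), so differences are also given within each letter.

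None of the 10 FGF genes was called between diabetic and non-diabetic wounds, against 3.00% of all tested genes. An unadjusted limma p under 0.05, which 18.4% of all tested genes had, was found for 3 of the 10. These were FGF10, whose mean FPKM was higher in diabetic wounds (ratio 3.11), and FGF2 (ratio 0.495) and FGFR2 (ratio 0.721), whose means were lower. With voom on recovered reads none was called either. Of the 10 genes, 5 had a higher and 5 a lower mean log2 value in diabetic wounds. Their median log2 difference was -0.05, beside 0.01 over all tested genes. Groups did not overlap in 1 of the 10 genes, FGF10, beside 5.65% of all tested genes.

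**Figure D1:**
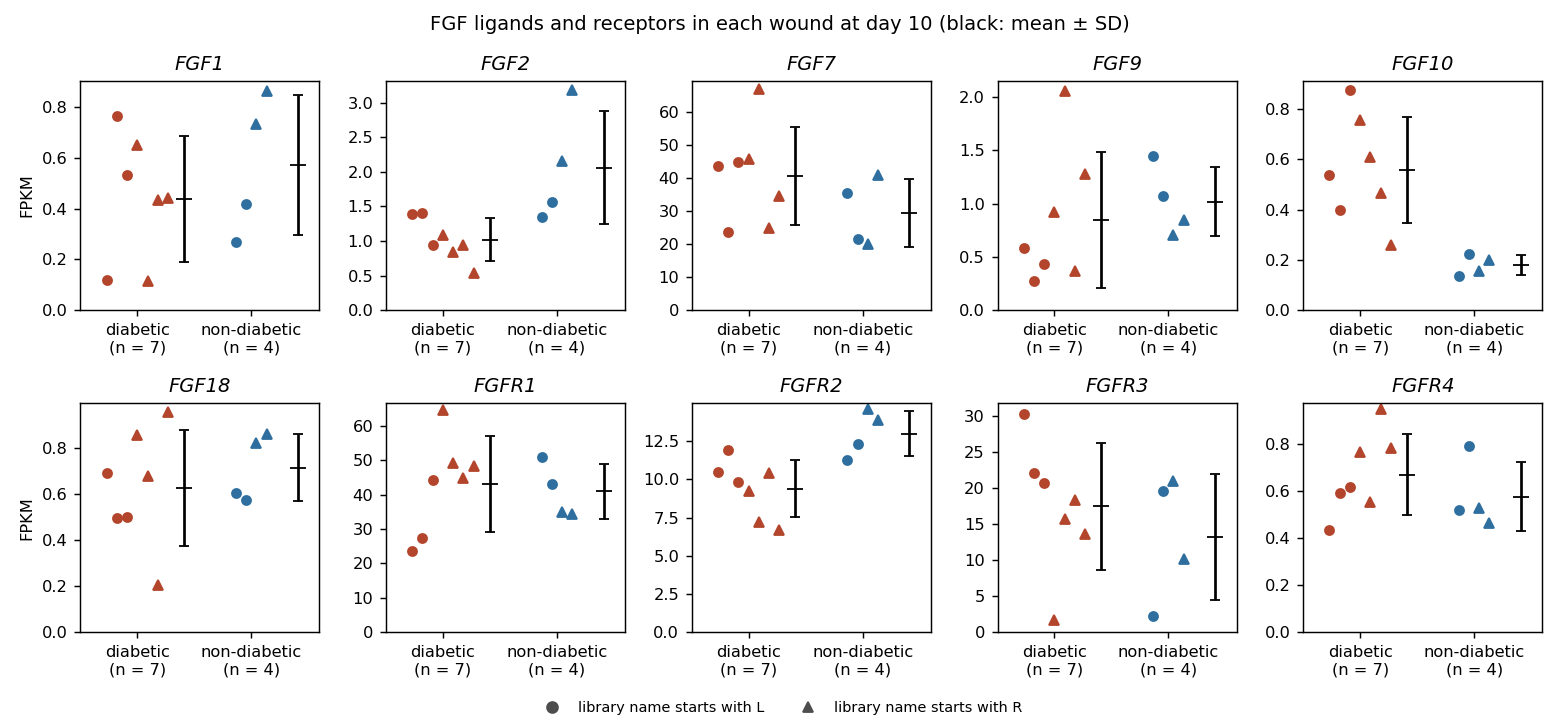
FPKM of each FGF ligand and receptor (vertical axis, linear and from 0) in the 7 diabetic (red) and 4 non-diabetic (blue) wounds, with circles for libraries named L, triangles for those named R, and the mean ± SD in black. FGF10 is the panel in which the groups do not overlap, with 0.259 to 0.874 FPKM across diabetic wounds and 0.136 to 0.225 FPKM across non-diabetic ones.

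FGF10, the mesenchymal ligand needed for limb and lung outgrowth and a partner of epithelial FGFR2, lies on chromosome 16 of Sscrofa11.1 at bases 28695465 to 28779953, minus strand. In diabetic replicates 1 to 7 its FPKM was 0.539, 0.400, 0.874, 0.754, 0.609, 0.467 and 0.259. In non-diabetic replicates 1 to 4 it was 0.136, 0.225, 0.156 and 0.200. Every diabetic wound was above every non-diabetic wound, with diabetic replicate 7 and non-diabetic replicate 2 the closest pair. The means were 0.558 ± 0.210 (SD, n = 7) and 0.179 ± 0.0404 FPKM (SD, n = 4), from 43 to 221 reads per diabetic wound and 25 to 50 reads per non-diabetic wound. The log2 difference was 0.62 (SE 0.16, 95% interval 0.27 to 0.96), with an adjusted p of 0.0565 by limma. The exact permutation p was 0.00606. FGF10 passed the filter on low values through diabetic wounds alone, 4 of which reached 0.5 FPKM and none of the non-diabetic wounds, and without the filter its adjusted p was 0.0582 by limma. Its position relative to the threshold moved with the settings: with diabetic replicate 7 left out the log2 difference was 0.69 and limma's adjusted p 0.0325, and with a pseudocount of 0.1 FPKM they were 1.18 and 0.0424. Other settings moved it away. With quantile normalization they were 0.60 and 0.121, and without diabetic replicate 4 and non-diabetic replicate 1 they were 0.54 and 0.194. FGF10 was called in 5 of 25 alternative settings. On recovered reads with voom, which adds less than 1 read to each count, the log2 difference was 1.57 (SE 0.39, adjusted p 0.0515). The difference was of one sign within both letters, 0.68 in L-named and 0.57 in R-named wounds.

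FGF7, also called keratinocyte growth factor, was by far the most abundant of the 6 ligands. It ranged from 23.7 to 66.9 FPKM in diabetic wounds (median 43.5) and was 35.5, 21.4, 20.0 and 40.8 FPKM in the non-diabetic wounds. The highest wound was diabetic replicate 5, and the ranges overlapped over most of their length. The means of 40.6 ± 14.8 (SD, n = 7) and 29.4 ± 10.3 FPKM (SD, n = 4) gave a log2 difference of 0.44 with a 95% interval of -0.20 to 1.08 and an adjusted p of 0.466 by limma. Within L-named and R-named wounds it was 0.37 and 0.49. FGF7 made up 87.6 to 94.0% of the summed FPKM of the 6 ligands in diabetic wounds and 81.4 to 90.3% in non-diabetic wounds. FGF10, which shares its receptor form, made up 0.681 to 1.81% and 0.345 to 0.889%.

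FGF2 (basic FGF), a ligand of fibroblasts and endothelium that lacks a classical signal peptide, lies on chromosome 8 at bases 101278877 to 101344084, minus strand. In diabetic replicates 1 to 7 it was at 1.39, 1.41, 0.940, 1.09, 0.843, 0.945 and 0.534 FPKM. In non-diabetic replicates 1 to 4 it was at 1.35, 1.57, 2.16 and 3.18 FPKM. The R-named non-diabetic replicates 3 and 4 were above all other wounds, and the L-named wounds of the groups met at 1.35 to 1.41 FPKM. The means were 1.02 ± 0.309 (SD, n = 7) and 2.06 ± 0.817 FPKM (SD, n = 4). The log2 difference was -0.73 (SE 0.21, 95% interval -1.19 to -0.27), with an adjusted p of 0.0878 by limma. The exact permutation p was 0.00909. Within L-named wounds the log2 difference was -0.18 and within R-named wounds -1.23, where FGF2 was called (limma adjusted p 0.0287, 4 against 2 wounds), as were 10.1% of all tested genes. The interaction of group and letter, added after the data were seen, had an adjusted p of 0.0636 by limma. FGF2 shares 23884 bases with NUDT6 on the opposite strand. NUDT6 had 65 to 181 reads per wound and mean levels of 0.268 FPKM across diabetic wounds and 0.301 FPKM across non-diabetic ones (exact permutation p 0.388). The libraries kept the strand, but the strand setting of the counting is not given in the sources used here, so reads of this pair may not be fully separated.

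The remaining ligands were low, and their groups overlapped. FGF9, an epithelial and mesenchymal ligand of FGFR3 among others, was at 0.273 to 2.06 FPKM in diabetic wounds (median 0.581), from 8 to 55 reads per wound, and at 1.45, 1.07, 0.702 and 0.846 FPKM in non-diabetic wounds. Its log2 difference was -0.27 (95% interval -0.95 to 0.40, limma adjusted p 0.697), and it was -0.93 within L-named and 0.28 within R-named wounds. The interaction of group and letter for FGF9 had an unadjusted p of 0.0434 and an adjusted p of 0.147 by limma. FGF18, a ligand of FGFR3 in cartilage and hair follicle, was at 0.207 to 0.957 FPKM across diabetic wounds and 0.574 to 0.861 FPKM across non-diabetic ones. Its log2 difference was -0.13 (95% interval -0.54 to 0.27, limma adjusted p 0.758), and it was -0.04 within L-named and -0.24 within R-named wounds. FGF1 (acidic FGF), which binds every FGF receptor, was at 0.114 to 0.766 and 0.268 to 0.866 FPKM. Its log2 difference was -0.20 (95% interval -0.73 to 0.32, limma adjusted p 0.706), with 0.15 within L-named and -0.55 within R-named wounds.

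Over all 11 wounds the ligands ranked FGF7, FGF2, FGF9, FGF18, FGF1 and FGF10 by mean FPKM. FGF7 exceeded FGF2 in 11 of 11 wounds. Lower down, neighbours were not separated: FGF2 exceeded FGF9 in 8 wounds, FGF9 exceeded FGF18 in 6, FGF18 exceeded FGF1 in 7 and FGF1 exceeded FGF10 in 6. The last pair changed places with the group, since FGF1 was above FGF10 in 4 of 4 non-diabetic and in 2 of 7 diabetic wounds.

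FGFR2, whose splice forms are divided between epithelium and mesenchyme, was the receptor with the lowest unadjusted p. In diabetic replicates 1 to 7 its level was 10.5, 11.9, 9.83, 9.26, 7.20, 10.4 and 6.70 FPKM. In non-diabetic replicates 1 to 4 its level was 11.3, 12.3, 14.6 and 13.9 FPKM. Diabetic replicate 2 was the only diabetic wound above the lowest non-diabetic wound. The means of 9.40 ± 1.85 (SD, n = 7) and 13.0 ± 1.49 FPKM (SD, n = 4) gave a log2 difference of -0.47 (SE 0.15, 95% interval -0.80 to -0.14) and an adjusted p of 0.118 by limma. The exact permutation p was 0.0182. As for FGF2, the difference was smaller within L-named wounds (-0.14) than within R-named wounds (-0.75), with an interaction p of 0.0323 unadjusted and 0.125 adjusted (limma). With wounds weighted by their estimated quality in limma, FGF10, FGF2 and FGFR2 were all called, at adjusted p-values of 0.0381, 0.0149 and 0.0283, and the same weights raised the share called among all tested genes from 3.00 to 5.89%.

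FGFR1, the receptor of mesenchymal cells, was the most abundant receptor and differed little between the groups. It was at 23.5, 27.5, 44.2, 64.5, 49.2, 44.7 and 48.3 FPKM in diabetic replicates 1 to 7 and at 51.0, 43.0, 34.9 and 34.4 FPKM in non-diabetic replicates 1 to 4. The means were 43.1 ± 13.9 (SD, n = 7) and 40.9 ± 7.86 FPKM (SD, n = 4), with a log2 difference of 0.03 (95% interval -0.52 to 0.57, limma adjusted p 0.970). The sign of so small a difference turned under several settings, among them quantile normalization (-0.085). Within letters it was -0.61 in L-named and 0.56 in R-named wounds, and the interaction had an adjusted p of 0.0626 by limma, the lowest of the 10 genes. The lowest FGFR1 levels were those of the L-named diabetic replicates 1 and 2, which also had the lowest summed FPKM of 12 fibroblast markers (23276 and 19507, against 35426 to 66780 in the other wounds). Collagen genes dominate that sum. PDGFRA, a less abundant marker of the same list, was not low there. It was at 45.4 and 35.1 FPKM in diabetic replicates 1 and 2. In the other diabetic wounds it was at 20.3 to 31.7 FPKM, and in non-diabetic wounds at 33.2 to 58.3 FPKM. Other markers of the list that are not collagens were low there. PDGFRB was at 55.4 and 63.9 FPKM in diabetic replicates 1 and 2, against 66.7 to 140 FPKM in the other wounds. THY1 was at 132 and 126 FPKM, against 220 to 477 FPKM. DCN, LUM, DPT and TWIST2 were also lowest in these wounds, while FAP and POSTN were lowest in diabetic replicate 2 alone.

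FGFR3, a receptor of the epidermis that favours keratinocyte differentiation, had the widest range of the 4 receptors as a ratio of highest to lowest wound. It was at 30.4, 22.1, 20.7, 1.70, 15.8, 18.4 and 13.6 FPKM in diabetic replicates 1 to 7 and at 2.27, 19.6, 21.0 and 10.2 FPKM in non-diabetic replicates 1 to 4. One wound of each group stood apart at the bottom, and these were the wounds with the least KRT5. The log2 difference was 0.45 with a 95% interval of -1.13 to 2.03 (limma adjusted p 0.797), so these wounds resolved neither its direction nor its size. Without both low wounds it was 0.26 (SE 0.27, limma adjusted p 0.689), and without non-diabetic replicate 1 alone it was -0.19. Within L-named wounds it was 1.72 and within R-named wounds -0.62, with an interaction p of 0.121 unadjusted and 0.269 adjusted (limma). FGFR4, a receptor best known from liver and muscle, was at 0.436 to 0.950 FPKM across diabetic wounds and 0.464 to 0.794 FPKM across non-diabetic ones. Its log2 difference was 0.12 (95% interval -0.19 to 0.42, limma adjusted p 0.709), with -0.14 within L-named and 0.33 within R-named wounds.

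**Figure D2:**
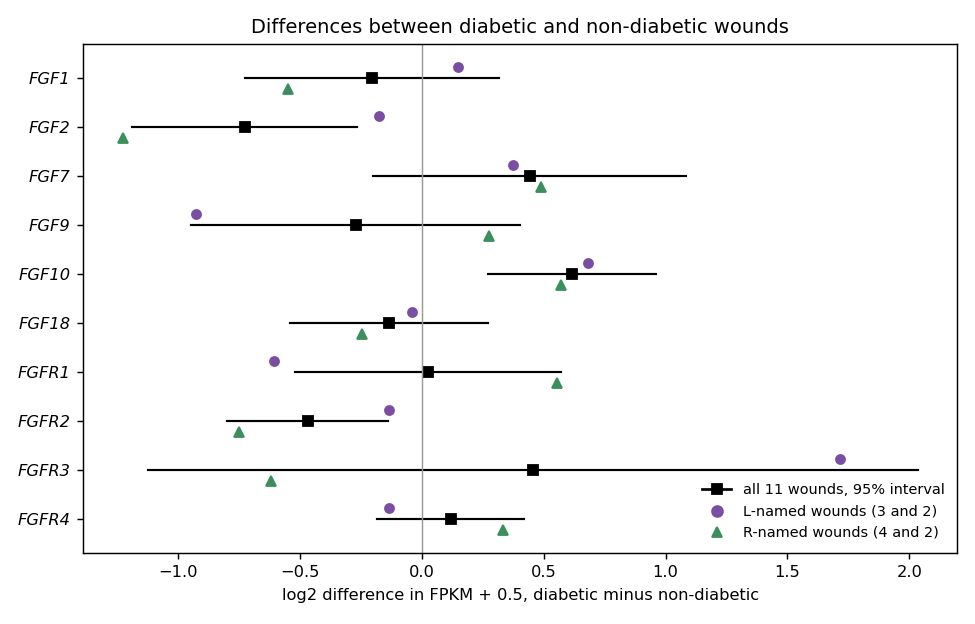
Log2 difference in FPKM + 0.5 (diabetic minus non-diabetic, horizontal axis) for each gene, with the estimate over all 11 wounds and its 95% interval in black and the estimates within L-named (purple circles) and R-named (green triangles) wounds. The intervals of FGF2, FGF10 and FGFR2 leave out 0, while FGF1, FGF9, FGFR1, FGFR3 and FGFR4 have opposite signs in the 2 letters.

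The receptors ranked FGFR1, FGFR3, FGFR2 and FGFR4 by mean FPKM over all wounds (42.3, 16.0, 10.7 and 0.638). FGFR1 exceeded FGFR3 in 10 of 11 wounds, the exception being diabetic replicate 1. FGFR3 exceeded FGFR2 in 6 of 7 diabetic and 2 of 4 non-diabetic wounds, and FGFR2 exceeded FGFR4 in all 11. The summed FPKM of the 4 receptors varied little, from 62.0 to 76.3 in diabetic and from 59.0 to 75.8 in non-diabetic wounds, while its composition did not stay the same. FGFR1 took 36.2 to 84.6% of the sum in diabetic wounds and 49.1 to 78.3% in non-diabetic wounds. FGFR3 took 2.23 to 46.9% and 3.48 to 29.6%. The share of FGFR2 was 9.67 to 19.1% in diabetic wounds and 16.3 to 23.5% in non-diabetic wounds, with medians of 13.1 and 19.0%.

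**Figure D3:**
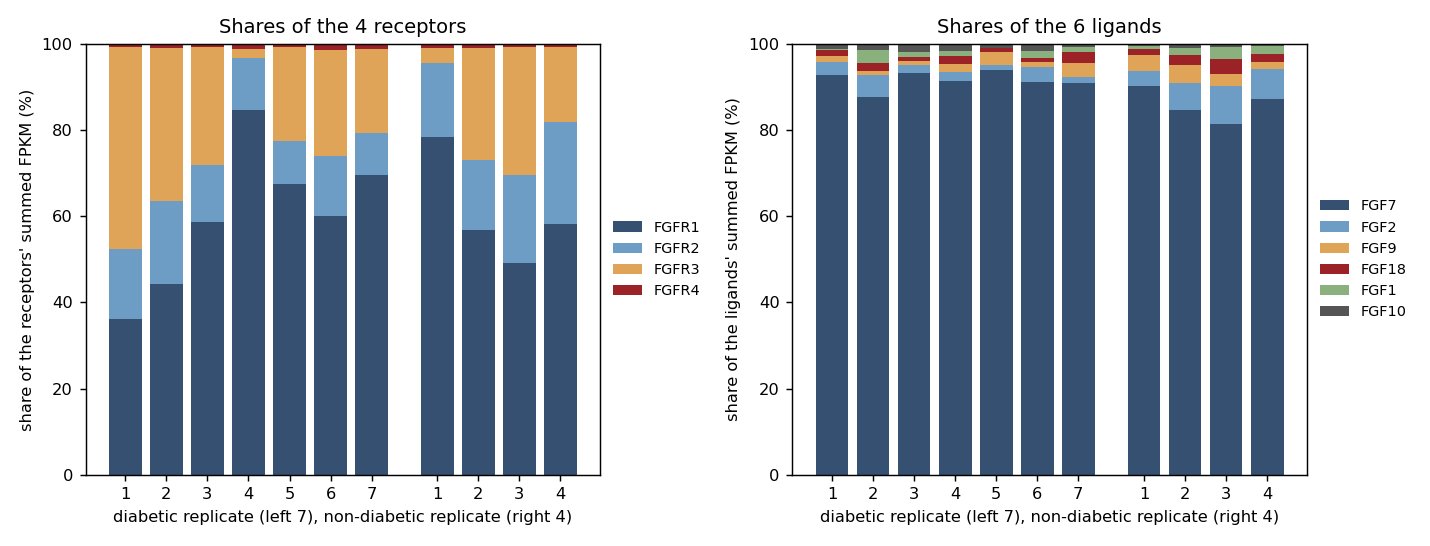
Share of each receptor in the summed FPKM of the 4 receptors (left) and of each ligand in that of the 6 ligands (right), one bar per wound, with the 7 diabetic wounds left of the 4 non-diabetic wounds. FGFR3 shrinks to 2.23% in diabetic replicate 4 and 3.48% in non-diabetic replicate 1, and FGF7 fills at least 81.4% of every ligand bar.

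Member levels were also set beside the summed markers of cell types from wound to wound. With group means taken out, log2 FPKM of FGFR3 correlated with the log2 sum of the keratinocyte markers at Pearson r = 0.920 over 11 wounds. Without diabetic replicate 4 and non-diabetic replicate 1 it was r = 0.206 over the remaining 9 wounds. The relation with this sum therefore rests on the wounds left out, which does not cover single markers. KRT5 in diabetic replicates 1, 2, 3, 5, 6 and 7 was at 1986, 2861, 2319, 1166, 1112 and 1278 FPKM. FGFR3 there was at 30.4, 22.1, 20.7, 15.8, 18.4 and 13.6 FPKM. In non-diabetic replicates 2 to 4 KRT5 was at 1440, 1553 and 817 FPKM, and FGFR3 at 19.6, 21.0 and 10.2 FPKM. Each sum follows its most abundant markers, such as COL1A1 in the fibroblast list. Which keratinocyte marker weighs most differed between wounds. The keratinocyte sum was highest in diabetic replicates 6 and 7 (6774 and 5816 FPKM). There KRT1 was at 2940 and 2561 FPKM, above KRT5. Correlations of the members with single markers of these lists are not given here. FGFR1 correlated with the fibroblast sum at r = 0.921, and at r = 0.788 without diabetic replicates 1 and 2. FGFR1 also correlated with the Schwann cell sum (r = 0.872) and the macrophage sum (r = 0.838). FGFR4 correlated with the adipocyte sum (r = 0.872, and 0.772 without diabetic replicates 4 and 6) and the Schwann cell sum (r = 0.683). The most abundant gene was FABP4 in the adipocyte list and PMP22 in the Schwann cell list. The highest positive value of FGFR2 was 0.387, with the endothelial sum. The strongest negative value with any marker sum was that of FGFR3 with the macrophage sum (r = -0.801). Diabetic replicate 4 and non-diabetic replicate 1, lowest in FGFR3, had the highest macrophage sums of their groups (1655 and 869 FPKM). A value without them is not given for this pair. FGF2 and FGFR2 ran against the fibroblast sum (r = -0.781 and -0.782) and the Schwann cell sum (r = -0.770 and -0.598), and FGFR2 against the macrophage sum (r = -0.677). FGF2 and FGFR2 ran with each other (r = 0.775), and FGF9 ran against FGFR2 (r = -0.917). These values describe the same 11 libraries, whose genes share depth and tissue makeup, and carry no test.

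**Figure D4:**
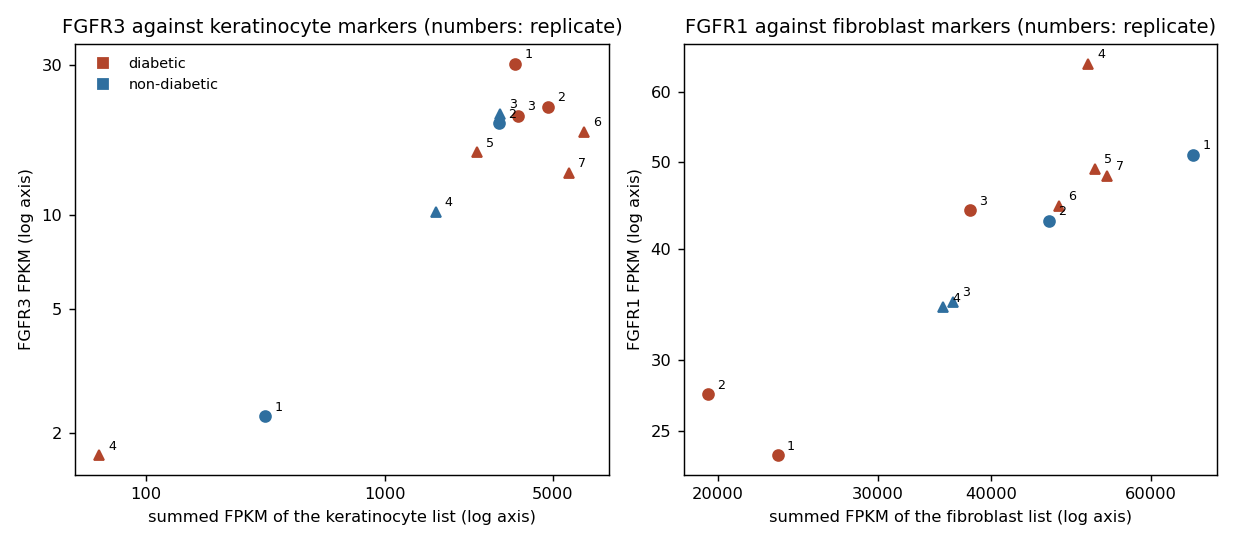
FGFR3 against the summed FPKM of the keratinocyte markers (left) and FGFR1 against that of the fibroblast markers (right), on log axes, with 1 point per wound (red diabetic, blue non-diabetic, circles L-named, triangles R-named) and the replicate number beside it. Diabetic replicate 4 and non-diabetic replicate 1 lie far down on the left panel at 1.70 and 2.27 FPKM of FGFR3.

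Among all tested genes, those whose wound-to-wound pattern was most like FGFR3, by the same correlation over 11 wounds, included FAM83H (r = 0.993) and ANXA8 (0.990). For FGFR1 they were IQSEC2 (0.991), SLC2A4RG (0.986) and MARCKS (0.985), for FGFR2 CLASP1 (0.952), TAB2 (0.949) and MAGI1 (0.946), and for FGFR4 SH3GLB2 (0.937), FAM149B1 (0.937) and PEX26 (0.936). Among the ligands, FGF2 was most like CTTNBP2NL (0.967), ARMC8 (0.928) and TMEM216 (0.923), and FGF7 most like TMED2 (0.940), EVI2A (0.931) and ORMDL1 (0.930). FGF9 was most like TEPSIN (0.964), VGLL4 (0.912) and FXYD5 (0.906). For FGF18 the genes were LYN (0.905), MMP25 (0.888) and RAB28 (0.886), and for FGF1 GNLY (0.896), GCA (0.883) and MPPE1 (0.883). FGF10 had the least close neighbours, CGRRF1 (0.878), PLN (0.874) and ABCC8 (0.830). Each is the top of a search over the whole table in 11 wounds, so high values are to be found for any gene, and none of these genes was called between the groups.

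The other genes of FGF signalling were taken as 7 lists written from general knowledge, with 114 symbols, of which 111 matched a single gene and 86 passed the filter. Of the 86, 3 were called (3.49%, beside 3.00% of all tested genes), and in 5 the groups did not overlap (5.81%, beside 5.65% of all tested genes). IL17RD and ETV4 rose and GPC6 fell in diabetic wounds. IL17RD (Sef) is a membrane protein that inhibits FGF signalling and is induced by it. It was at 2.05, 2.17, 1.81, 2.28, 1.43, 2.26 and 1.36 FPKM in diabetic replicates 1 to 7 and at 1.10, 0.916, 0.904 and 0.947 FPKM in non-diabetic replicates 1 to 4. All diabetic wounds were above all non-diabetic wounds, with a log2 difference of 0.70 (SE 0.13, limma adjusted p 0.0171). ETV4, an ETS factor downstream of FGF receptors, was at 6.77, 4.63, 4.53, 5.72, 6.27, 6.16 and 5.43 FPKM in diabetic wounds and at 2.00, 3.40, 3.42 and 3.23 FPKM in non-diabetic wounds. It did not overlap either, with a log2 difference of 0.82 (SE 0.15, limma adjusted p 0.0137). GPC6, a cell surface heparan sulphate proteoglycan, was at 1.46, 0.826, 1.64, 1.22, 1.51, 0.756 and 0.910 FPKM in diabetic wounds and at 4.37, 1.83, 2.53 and 2.28 FPKM in non-diabetic wounds. Its log2 difference was -0.92 (SE 0.22, limma adjusted p 0.0417). All 3 differences were close to equal within the letters, at 0.74 and 0.69 for IL17RD, 0.87 and 0.74 for ETV4, and -0.93 and -0.88 for GPC6 (L-named and R-named). Without diabetic replicate 4 and non-diabetic replicate 1 together none of the 3 was called, with log2 differences of 0.71 for IL17RD (limma adjusted p 0.0587), 0.66 for ETV4 (0.0518) and -0.71 for GPC6 (0.131). The call of GPC6 was lost in 15 of 26 alternative settings, that of IL17RD in 7 and that of ETV4 in 3.

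By list, the 12 transcriptional targets of the pathway had a median log2 difference of 0.26, with 9 above 0 and ETV4 called. Their most abundant gene, the immediate early factor FOS, was at 57.6 ± 48.1 FPKM (SD, n = 7) across diabetic wounds and 51.2 ± 29.2 FPKM (SD, n = 4) across non-diabetic ones. ETV5, the close relative of ETV4, was chosen after its values were seen. It was at 2.00 ± 0.163 (SD, n = 7) and 1.33 ± 0.229 FPKM (SD, n = 4) without overlap, and its log2 difference of 0.45 was under the fold threshold at a limma adjusted p of 0.0350. Of the 14 feedback inhibitors that passed the filter, 8 were above 0, IL17RD was called and the median was 0.03. SPRY2, the most abundant of the inhibitors, was at 9.55 ± 3.59 (SD, n = 7) and 10.9 ± 2.82 FPKM (SD, n = 4).

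The 25 intracellular signal transducers had 11 genes above 0, a median of -0.02 and none called. AKT1, the most abundant of them, was at 74.2 ± 10.7 (SD, n = 7) and 70.0 ± 5.35 FPKM (SD, n = 4). FRS2, the adaptor that links FGF receptors to RAS and a gene also chosen after its values were seen, was at 2.58 ± 0.343 (SD, n = 7) and 3.96 ± 0.925 FPKM (SD, n = 4), with a log2 difference of -0.52 and an adjusted p of 0.0630 by limma. Among the 11 heparan sulphate proteoglycans 6 were above 0 and GPC6 was called, and the median was 0.05. SDC2 (syndecan 2) was the most abundant of these, at 240 ± 53.5 (SD, n = 7) and 277 ± 35.0 FPKM (SD, n = 4). The 13 enzymes of heparan sulphate synthesis and remodelling had 7 above 0, a median of 0.03 and none called. Their most abundant gene was the extracellular sulphatase SULF2, at 66.3 ± 21.4 (SD, n = 7) and 88.8 ± 18.4 FPKM (SD, n = 4).

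**Figure D5:**
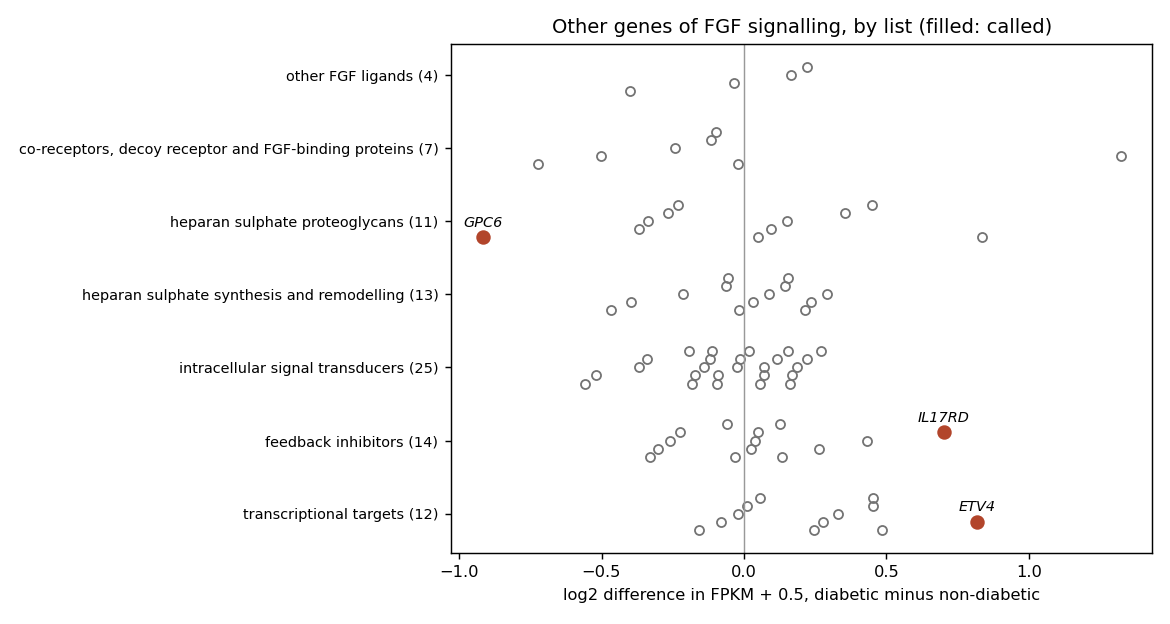
Log2 difference in FPKM + 0.5 (diabetic minus non-diabetic, horizontal axis) of the 86 tested genes of FGF signalling in 7 lists (rows, with the number tested in brackets), with called genes filled and named. GPC6 at -0.92, IL17RD at 0.70 and ETV4 at 0.82 are the called genes, and most others lie within 0.5 of 0.

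Of the 16 other FGF ligands, 4 passed the filter and none was called. FGF22, an epithelial relative of FGF7 and FGF10, was the most abundant at 2.01 ± 0.656 (SD, n = 7) and 1.69 ± 0.822 FPKM (SD, n = 4). FGF13, an intracellular FGF homologue that was chosen after its values were seen, was at 0.286 to 0.573 FPKM across diabetic wounds and 0.610 to 0.710 FPKM across non-diabetic ones (limma adjusted p 0.0855). All 4 non-diabetic wounds but only 1 diabetic wound reached 0.5 FPKM, so FGF13 passed the filter through the group where it was higher. Co-receptors, the decoy receptor and FGF-binding proteins numbered 7 tested genes, with 1 above 0, a median of -0.12 and none called. The gene above 0 was FGFBP1, a secreted protein that releases FGFs from heparan sulphate. It was at 214, 84.1, 34.8, 0.303, 128, 17.5 and 54.0 FPKM in diabetic replicates 1 to 7 and at 4.40, 13.4, 46.9 and 11.5 FPKM in non-diabetic replicates 1 to 4. Its highest levels were in diabetic wounds and so was its lowest, in the keratin-poor diabetic replicate 4, and the log2 difference of 1.32 had an SE of 1.29 (limma adjusted p 0.644).

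Of the 7 marker lists, the macrophage list was the one whose summed level had an exact permutation p under 0.05. The summed FPKM of 10 macrophage markers was 712 to 1655 in diabetic and 459 to 869 in non-diabetic wounds (exact permutation p 0.0394, unadjusted over 7 marker lists), and 2 of the 10 were called higher. Within R-named wounds the sums did not overlap (950 to 1655 against 459 and 719), and within L-named wounds they did (712 to 1027 against 720 and 869). Of 9 adipocyte markers 2 were called lower, LPL and LEP, the latter having passed the filter through non-diabetic wounds alone. The median log2 difference of the 9 adipocyte markers was -0.97, and only 1 of them, FABP4, was above 0. FABP4, the most abundant adipocyte marker, had a log2 difference of 0.92 (limma adjusted p 0.0607). The adipocyte sums, in which FABP4 weighs most, were 300 to 902 and 338 to 548 FPKM (exact permutation p 0.427). LPL, LEP and FABP4 were chosen after their values were seen. Of 14 keratinocyte markers 1 was called higher, with sums of 64.1 to 6774 and 315 to 3010 FPKM. No marker was called in the fibroblast, endothelial, Schwann cell and skeletal muscle lists, the last with 1 tested gene. Of all tested genes, 3.00% were called in either direction. With the keratinocyte sum as a covariate in limma the adjusted p was 0.0475 for FGF10, 0.0983 for FGF2, 0.121 for FGFR2, 0.0158 for IL17RD, 0.0176 for ETV4 and 0.0425 for GPC6. The part of macrophages and adipocytes in these differences was not tested. FGF7 lies within FAM227B, FGF10 within LOC102161640 and FGF2 over LOC110261982, all on the opposite strand, and the microRNA gene MIR7138 lies in FGFR4. FAM227B had 54 to 136 reads per wound, against 1413 to 4740 for FGF7, and the other 3 had at most 4.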

How the data were processed

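RNA was sequenced from 11 wounds collected on day 10, with 1 poly(A) library per wound. Per the labels, reads were processed with fastp, HISAT2 2.2.1, StringTie 2.2.3 and featureCounts 2.0.6 on Sscrofa11.1. The deposited FPKM values, scaled by the authors by gene length and library size with a formula not given in the sources used here, were used as they stand. Multiplied by gene length they were whole reads for 100.0% of values within 0.05 reads. Coordinates of all 10 FGF genes were the same in the RefSeq annotation of Sscrofa11.1.

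Groups were taken from the sample titles. The 30376 genes were filtered at 0.5 FPKM in at least 4 wounds, and log2(FPKM + 0.5) was fitted with limma 3.58.1 (R 4.3.3, eBayes with trend), Benjamini-Hochberg adjusted over 13956 genes. A fold change on this scale understates the change of low genes. The study tested counts, and FPKM needed another test. Exact permutation tests were computed with NumPy 2.4.6 under Python 3.11.15. The fit was tested on simulated data.

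The members, lists and tests were chosen with earlier results of these data known, so they give no independent support. Genes named are the members, the called and most abundant genes of each pathway list, the 3 genes most correlated with each member, overlapping genes and defining markers. A gene that this rule would name is not reported here. FGF13, ETV5, FRS2, LPL, LEP and FABP4 were added with their values in view. So were KRT1, PMP22 and the fibroblast markers named beside PDGFRA. The settings varied were the pseudocount, filter, scaling, spread estimate, weights, block, covariates, wounds and the values fitted. The interaction with the library letter was added after the data were seen.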

Additional observations from a re-analysis of the deposited data

Results flagged for a closer look

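For 22 genes (the 10 FGF ligands and receptors and 12 named pathway genes) each group was checked for a wound lying apart on the log2 scale, by the gap to the next wound divided by the range of the group, against Dixon's critical value. Of 44 combinations 3 exceeded it, and chance alone gives about 1 in 20. FGFR3 in diabetic replicate 4 (1.70 FPKM) had a ratio of 0.702, ETV4 in non-diabetic replicate 1 (2.00 FPKM) a ratio of 0.884 and FGF22 in non-diabetic replicate 2 (2.92 FPKM) a ratio of 0.874. Diabetic replicate 4 and non-diabetic replicate 1 are the wounds with the lowest keratinocyte sums, 64.1 and 315 FPKM.

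The difference between diabetic and non-diabetic wounds itself differed between R-named and L-named libraries, by the interaction term in limma, for 6.46% of all tested genes. None of the 10 FGF genes passed an adjusted p under 0.05 there, and the smallest was 0.0626. Of the 86 pathway genes 8 passed. They include the most abundant genes of 2 lists: the log2 difference of SDC2 was -0.67 within L-named and 0.13 within R-named wounds, an interaction of 0.80 (adjusted p 0.0484, limma), and that of SULF2 was -1.15 and 0.09, an interaction of 1.24 (adjusted p 0.0419, limma). What the letters stand for is not given in the labels.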

How the results depend on the processing

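The number of genes called, 419 of 13956, was 16 with the replicate block, 822 with library weights, 9 in L-named wounds, 1415 in R-named wounds, 212 without diabetic replicate 4 and non-diabetic replicate 1, and 209 to 482 with each wound left out in turn. The count fell most without a non-diabetic wound (209 to 273), and to 279 without diabetic replicate 3. Numbers shared between replicates do not pair the wounds: deviations of same-numbered wounds correlated at -0.48 to 0.21, and of the FGF genes FGF10 had a log2 difference of 0.73 under the block (adjusted p 0.365, limma).

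The number of FGF ligands and receptors called, 0 of 10, was 3 with library weights and 1 each in R-named wounds (FGF2), with the keratinocyte covariate, without a trend and with a pseudocount of 0.1 FPKM (FGF10). In the same order, these settings called 822, 1415, 450, 426 and 421 of all 13956 tested genes. It was 0 to 1 with each wound left out. The number of pathway genes called, 3 of 86, was 0 with the replicate block, 0 in L-named wounds and 0 without diabetic replicate 4 and non-diabetic replicate 1. It was 8 in R-named wounds, where 10.1% of all tested genes were called, and 1 to 4 with each wound left out. FGF10, FGF2, FGFR2, FGF7 and FGF18 kept their direction in every setting in which they were tested (the filter of 1 FPKM left out FGF10 and FGF18), with log2 differences of 0.39 to 1.57, -1.23 to -0.18, -0.75 to -0.14, 0.28 to 0.62 and -0.31 to -0.03.

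The log2 difference turned for FGF1 in L-named wounds (0.15), FGF9 in R-named wounds (0.28), FGFR4 in L-named wounds (-0.14) and FGFR3 in R-named wounds (-0.62) and without non-diabetic replicate 1 (-0.19). FGFR1, at 0.03, turned in L-named wounds (-0.61), with quantile normalization (-0.085), the replicate block (-0.13) and equal totals (-0.048), and without diabetic replicates 4, 5 or 7 or non-diabetic replicates 3 or 4. With each wound left out it was -0.082 to 0.16 for FGFR1 and -0.19 to 0.91 for FGFR3. Causes were not tested. FGF9, FGF18, FGF1 and FGF10 rest on as few as 8, 11, 16 and 25 reads in a wound, which limits their precision.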
